A study of Mus musculus with 18 samples.

Results

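The fragments described here are 5′ pieces of the mitochondrial serine tRNAs found in small RNA of mouse lung. The rule takes them by annotation, as every listed tRNA-derived small RNA (tsRNA) of type tRF-5b, tRF-5c or tiRNA-5 whose name contains chrM.Ser, and uses no measured value. The rule gave 14 of the 193 listed tsRNAs, of which 9 come from the tRNA with the anticodon GCT and 5 from the tRNA with the anticodon TGA. Every listed mitochondrial serine fragment was of one of these types, so none fell outside the rule. The study asked how mesenchymal stem cells, called BMSCs in the labels, alter tsRNA and mRNA in mice with a smoke-induced form of COPD, the chronic disease in which airways narrow and alveoli are lost. Lung tissue was profiled in 3 groups with 3 libraries each for every RNA type. Control mice received phosphate-buffered saline. COPD model mice were exposed to cigarette smoke, were injected intraperitoneally with cigarette smoke extract and received saline. BMSC-treated mice were the same model given 4000000 BMSCs in 100 µl of saline by tail vein, so the vehicle was common to the groups. The labels give no strain, age or sex, and nothing in them ties a library to its own mouse, so a p-value here reflects only how far these libraries spread.

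Mitochondrial tRNAs are cut out of long transcripts of the mitochondrial genome, where they stand between the coding genes. Mitochondria have separate serine tRNAs for their serine codons: the one read here as GCT decodes AGY codons and is known for lacking the D-arm of the usual cloverleaf, and the one read as TGA decodes UCN codons. Fragments of types tRF-5b and tRF-5c begin at the 5′ end of the mature tRNA and differ in length, and a tiRNA-5 is a 5′ piece that ends in the anticodon loop, where ribonucleases such as angiogenin cut tRNAs under stress.

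The parent tRNAs are shown first, as DNA letters with the added CCA tail, because the position of the anticodon sets how the fragment ends can be read. The anticodon is in capitals in every sequence.
mitochondrial tRNA Ser-GCT: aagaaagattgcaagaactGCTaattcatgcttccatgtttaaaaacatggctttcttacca
mitochondrial tRNA Ser-TGA: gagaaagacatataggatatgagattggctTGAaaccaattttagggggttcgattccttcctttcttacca
RefSeq's annotation of the mm10 assembly (GRCm38.p6) was searched, and its serine tRNA genes of the same lengths are TrnS2 at MT:11613-11671 (59 bases) and TrnS1 at MT:6870-6938 (69 bases). By coordinate, TrnS2 lies between the tRNA genes TrnH and TrnL2. TrnS1 overlaps the annotated end coordinate of the protein-coding gene COX1 at 6872 and has lower coordinates than the tRNA gene TrnD. Strand was not considered, so this order does not place the genes in one transcript. The anticodon takes positions 20 to 22 of Ser-GCT and positions 31 to 33 of Ser-TGA, counted from 1 at the 5′ end, so the short Ser-GCT tRNA reaches its anticodon earlier. Of the first 20 bases, 10 are identical between the tRNAs, and each fragment occurs in its own parent and in no other parent tRNA in the deposited table. Nuclear copies of mitochondrial DNA that could share these reads were not examined.

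Of the 14 fragments, 6 are printed, with any anticodon bases they hold in capitals. They are the most abundant one of each tRNA, those whose groups did not overlap in a comparison, and those that end at the anticodon.
tiRNA-1:20-chrM.Ser-GCT: aagaaagattgcaagaactG
tRF-1:22-chrM.Ser-GCT: aagaaagattgcaagaactGCT
tRF-1:30-chrM.Ser-GCT: aagaaagattgcaagaactGCTaattcatg
tRF-1:24-chrM.Ser-TGA: gagaaagacatataggatatgaga
tRF-1:29-chrM.Ser-TGA: gagaaagacatataggatatgagattggc
tiRNA-1:31-chrM.Ser-TGA: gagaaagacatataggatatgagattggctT
The 24-mer of Ser-TGA is printed as the most abundant piece of its tRNA. Both tiRNA-5 members end on the first anticodon base, the 20-mer on the G of GCT and the 31-mer on the T of TGA. All 29 tiRNA-5 fragments whose anticodon could be located, from any tRNA, end on that base. Of those with a located anticodon, 0 of 9 tRF-5b and 0 of 78 tRF-5c fragments do. This end thus goes with the type name and is no result about cleavage. The 22-mer of Ser-GCT ends on the last anticodon base instead, with A as the next base of the tRNA. The other 7 Ser-GCT members, of 23, 24, 28, 29, 30, 31 and 32 bases, end past the anticodon. With a loop of 7 bases and a stem of 5 pairs, the 23-mer and the 24-mer end within the loop, the 28-mer and the 29-mer within the stem strand behind it, and the 3 longest beyond that strand. The tRF members of Ser-TGA, of 23, 24, 28 and 29 bases, all stop before the anticodon.

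An anticodon could be located in the parent of 116 of the 126 listed fragments of these 3 types. Only 7 of the 116 ended beyond the anticodon, and these were the 7 long Ser-GCT members, while 2 ended on the last anticodon base, 1 of them the Ser-GCT 22-mer. Type names follow length, since tRF-5b spans 22 to 24 bases and tRF-5c 28 to 32 bases, so tRF-5b and tRF-5c fall before the anticodon in Ser-TGA and, in Ser-GCT, after it or, for the 22-mer, on its last base. A pyrimidine followed by A (C or T before the end of the fragment, A as the next base of the parent strand) stood at the end of 1 of 14 members, 6 of 13 other mitochondrial fragments and 7 of 99 nuclear fragments of these types. The 1 member was the 22-mer, which held 91.8% of the members' mean CPM. Guanine and cytosine made up 31.03% to 37.93% of the members' bases, with a median of 34.8%, against a median of 51.7% in the nuclear fragments.

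Depth set the precision of these values. The tsRNA libraries held 440448 to 1742029 listed counts, and 893028 to 2679933 reads in all, as computed from counts and CPM, in which every library is scaled to the same number of reads. A floor of 3 counts corresponds to 1.12 to 3.36 CPM, and every member was above it in every library. Listed tsRNAs made up 42.6% of the reads in control 2, 49.3% in COPD model 3 and 44.8% in BMSC-treated 2, and 58.6% to 70.6% in the other 6 libraries. Because each group holds 1 of these 3 libraries, values are given per library, and fitted changes of the leading members also without them. Intervals given below are Wilson 95% intervals and cover counting error only, as no molecular identifiers are described. In whole tissue, fewer cells of a type and less RNA per cell cannot be told apart.

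The 22-mer of Ser-GCT was among the most abundant tsRNAs of the lung, ranking from 2 to 4 of 193 by library and 4 by its mean of 44794 CPM. It stood at 37549, 70455 and 28159 CPM in the control libraries 1, 2 and 3. In the COPD model libraries it stood at 29934, 28774 and 46694 CPM, and in the BMSC-treated libraries at 43566, 89631 and 28382 CPM. The highest values were in control 2, COPD model 3 and BMSC-treated 2, the libraries in which listed tsRNAs made up the smallest share of reads, and the 3 groups overlapped. The part of this library difference in the result was not tested. Group means were 45388 ± 22211, 35134 ± 10028 and 53860 ± 31896 CPM (SD, n = 3 each), so each difference between means was smaller than the larger SD of the groups compared. Without the 3 libraries of low listed share, its fitted changes were −0.26 log2 in COPD model against control, 0.56 in BMSC-treated against COPD model and 0.30 in BMSC-treated against control.

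All 14 members together made up 4.07%, 7.58% and 3.20% of the implied reads in control libraries, 3.35%, 3.32% and 5.03% in COPD model libraries and 4.66%, 9.63% and 3.10% in BMSC-treated libraries. Counting error moved these shares by at most 0.0558 percentage points, far less than the libraries differed. Among mitochondrial tsRNAs the members held 89.8% to 93.5% of the reads of the 46 listed mitochondrial fragments. A share this close to the whole can vary little. The sum of the Ser-GCT members was 175 to 527 times that of the Ser-TGA members, which together reached 83.2 to 268 CPM in a library. Members exceeded the summed 13 other mitochondrial fragments of the same types by 13.8 to 21.3 times. Exact two-sided permutation tests of these shares and ratios between groups gave p of 0.4 or more, where 0.1 is the smallest p that 3 against 3 libraries allow.

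Within Ser-GCT the 22-mer held 92.4%, 93.2% and 88.5% of the reads in control libraries, 89.8%, 87.2% and 93.1% in COPD model libraries and 93.9%, 93.4% and 92.0% in BMSC-treated libraries. The groups overlapped. The next most abundant piece was the tiRNA-5 20-mer, at 1683 CPM over all libraries, followed by the 28-mer at 695 CPM and the 23-mer at 568 CPM. The 31-mer (326 CPM), the 30-mer (298 CPM), the 24-mer (130 CPM), the 29-mer (107 CPM) and the 32-mer (42.7 CPM) were rarer. Among the listed ends of this tRNA, that at the last anticodon base was thus read far more often than the others.

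The 20-mer of Ser-GCT, which lacks only the last 2 anticodon bases of the 22-mer, stood at 2052, 2566 and 1868 CPM in control libraries and at 1535, 1403 and 736 CPM in COPD model libraries. Every COPD model library was below every control library. BMSC-treated libraries lay at 1582, 2047 and 1354 CPM, overlapping both groups. The fitted change in COPD model against control was −0.70 ± 0.58 log2 (SE), with an adjusted p of 0.935 by edgeR's quasi-likelihood test with Benjamini-Hochberg adjustment over 191 tsRNAs. Its direction was kept in 18 of 18 alternative fits, from −1.20 to −0.39, and it was −0.49 without the 3 libraries of low listed share. BMSC-treated against COPD model gave 0.53 ± 0.58 log2 for this 20-mer. As a share of Ser-GCT reads the 20-mer overlapped between control (5.05%, 3.40% and 5.87%) and COPD model libraries (4.60%, 4.25% and 1.47%), and the exact permutation p was 0.4.

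The tRF-5c 30-mer of Ser-GCT, which carries the whole anticodon loop and, with a stem of 5 pairs, runs 1 base past the stem strand behind it, was higher in the COPD model libraries. It stood at 113, 239 and 239.6 CPM in control libraries and at 261, 523 and 256 CPM in COPD model libraries, again without overlap. The gap was within counting error, since the interval of control 3 (222 to 259 CPM) overlapped that of COPD model 3 (225 to 292 CPM). In BMSC-treated libraries it ranged from 95.9 CPM in library 3 through 173 CPM in library 1 to 786 CPM in library 2. The fitted change in COPD model against control was 0.95 ± 0.62 log2, with an adjusted p of 0.866 by edgeR, and it was above 0 in 18 of 18 alternative fits, from 0.52 to 1.18. Against the COPD model the BMSC-treated value was −0.02 ± 0.61 log2, but it was −1.25 without the 3 libraries of low listed share (adjusted p 0.0704, edgeR).

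That dependence on BMSC-treated library 2 was common to several long Ser-GCT pieces. The 28-mer stood at 327, 1697 and 184 CPM in BMSC-treated libraries 1, 2 and 3, against 498, 919 and 885 CPM in the COPD model and 304, 893 and 554 CPM in controls. The 29-mer stood at 44.2, 227 and 17.7 CPM in BMSC-treated libraries, against 89.9, 124 and 158 CPM in the COPD model. The 24-mer stood at 65.3, 226 and 35.1 CPM in BMSC-treated libraries, against 110, 237 and 155 CPM in the COPD model. Library 2 was thus the highest of all 9 libraries for the 28-mer and the 29-mer, while libraries 1 and 3 lay below every COPD model library for all 3 pieces. In BMSC-treated against COPD model the fitted changes over all libraries were −0.08 ± 0.62 log2 for the 28-mer, −0.40 ± 0.64 for the 29-mer and −0.63 ± 0.60 for the 24-mer. Without the 3 libraries of low listed share they were −1.19, −1.54 and −1.50, each with an adjusted p of 0.0590 by edgeR. Neither set of values passed. For the 23-mer, the 31-mer and the 32-mer the fitted changes were 0.06, −0.24 and −0.56 log2 in that comparison.

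Shares within a tRNA do not depend on the scaling of libraries. The 23-mer and 24-mer together held 0.965%, 1.03% and 1.76% of Ser-GCT reads in control libraries, 1.93%, 2.57% and 1.80% in COPD model libraries and 1.06%, 1.20% and 1.66% in BMSC-treated libraries. COPD model libraries were above every other library. The margin was small, since the interval of COPD model 3 (1.68% to 1.93%) overlapped that of control 3 (1.67% to 1.85%). The 28-mer to 32-mer together held 1.54%, 2.36% and 3.90% in control libraries, 3.68%, 5.99% and 3.65% in COPD model libraries and 1.65%, 3.31% and 1.94% in BMSC-treated libraries. Every BMSC-treated library was below every COPD model library, and control and COPD model libraries overlapped. Each of these 3 separations had an exact permutation p of 0.1, the smallest possible, and an adjusted p of 0.488 over 39 tests of 13 shares and ratios, of which 8 did not overlap.

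Ser-TGA gave fewer reads and another pattern of lengths. Its 24-mer was the most abundant piece, at 43.4, 93.7 and 85.5 CPM in control libraries, 87.6, 71.6 and 53.8 CPM in COPD model libraries and 73.3, 109 and 29.8 CPM in BMSC-treated libraries. The groups overlapped, and the fitted change was 0.10 log2 in COPD model against control. It was 0.0042 log2 in BMSC-treated libraries against the COPD model and 0.10 log2 against control. The 23-mer ranged from 4.48 to 23.7 CPM over the 9 libraries, the 28-mer from 8.96 to 40.1 CPM and the tiRNA-5 31-mer from 7.69 to 33.7 CPM. These 3 rested on 4 to 86 reads per library. None of these 4 pieces had groups that did not overlap.

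The 29-mer of Ser-TGA, which ends 2 bases before its anticodon, was the only member whose BMSC-treated libraries overlapped neither of the other groups. It stood at 12.2, 25.5 and 22.8 CPM in control libraries, 32.4, 13.9 and 20.2 CPM in COPD model libraries and 54.0, 62.5 and 48.7 CPM in BMSC-treated libraries. All 3 BMSC-treated libraries were above all 6 others, though the interval of BMSC-treated 3 (41.0 to 57.9 CPM) overlapped that of COPD model 1 (25.0 to 42.0 CPM). The values rested on 27, 37 and 61 reads in controls, 57, 27 and 18 in the COPD model and 115, 67 and 129 after BMSC treatment. The fitted change was 1.42 ± 0.62 log2 against the COPD model (adjusted p 0.357, edgeR) and 1.72 ± 0.63 log2 against control (adjusted p 0.572, edgeR). Neither passed. Without the 3 libraries of low listed share the changes were 1.42 and 1.85. In 18 of 18 alternative fits each, the changes stayed above 0, between 1.16 and 1.94 against the COPD model and between 1.35 and 1.85 against control, with adjusted p by edgeR or DESeq2 from 0.119 to 0.735 and from 0.107 to 0.9999. With same-numbered control and BMSC-treated libraries as a replicate block in a fit of these groups alone, the change against control was 1.72 with an adjusted p of 0.173 (edgeR).

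As a share of Ser-TGA reads the 29-mer held 14.7%, 13.4% and 13.5% in control libraries, 17.0%, 9.15% and 21.2% in COPD model libraries and 28.4%, 23.3% and 41.4% in BMSC-treated libraries. BMSC-treated libraries were again above the rest, with a mean difference of 15.2 percentage points from the COPD model and 17.2 from control. The interval of BMSC-treated 2 was 18.8% to 28.6% and that of COPD model 3, on 85 reads, 13.84% to 31.01%. The 24-mer share was correspondingly lower, at 38.5%, 40.8% and 25.3% after BMSC treatment against 46.0% to 56.5% in the other 6 libraries. The 31-mer share was lower in the COPD model (8.96%, 9.15% and 8.24%) than in control (9.24%, 17.7% and 9.29%) by the gap between 9.15% and 9.24%, on 27 and 17 reads. Each of these 5 separations had an exact permutation p of 0.1 and an adjusted p of 0.488. Shares of one tRNA sum to a whole, so they are not independent of each other.

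Over all members, edgeR called 0 of 14 in any comparison at an adjusted p under 0.05, against 0% of the 191 tsRNAs tested in each. All 14 had passed the filter on low counts. At an unadjusted p under 0.05 edgeR gave 0 of 14 members in COPD model against control, against 5.76% of all tested, 1 in BMSC-treated against COPD model, against 13.1%, and 1 in BMSC-treated against control, against 3.66%. That 1 was the Ser-TGA 29-mer both times. The count rested on the libraries. In BMSC-treated against COPD model it was 4 without BMSC-treated 2 and 5 without the 3 libraries of low listed share. Without those 3 libraries it was 2 in COPD model against control. DESeq2 also called 0 of 14, and gave 0, 1 and 1 members at an unadjusted p under 0.05 in the same order. For these refits and for DESeq2 the share of all tsRNAs under that p was not counted. Their counts are therefore no result about the members. DESeq2 called 2, 1 and 1 tsRNAs over the whole table, none of them a member.

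Counts of members whose groups did not overlap in CPM were read against the whole table in the same way. In COPD model against control, 1 member was higher (the Ser-GCT 30-mer), against 5.18% of all 193, and 1 was lower (the Ser-GCT 20-mer), against 5.18%. In BMSC-treated against COPD model, 1 was higher (the Ser-TGA 29-mer), against 3.11%, and 0 were lower, against 12.4%. In BMSC-treated against control, 1 was higher (the Ser-TGA 29-mer), against 1.55%, and 0 were lower, against 3.63%. A count of 1 in 14 is 7.14%, and no more than 1 member was separated in any direction.

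The fitted changes of the members had a median of 0.44 log2 in COPD model against control, with 11 of 14 above 0. Over all tsRNAs tested the median was 0.21, with 110 of 191 above 0. Members are overlapping pieces of the same tRNAs in the same libraries, so counts of them above 0 are not counts of independent values. Among the Ser-GCT members 7 of 9 were above 0, and the 22-mer (−0.27 ± 0.53) and the 20-mer were below. The 13 other mitochondrial fragments of these types had a median of −0.12 (3 above 0) and the 99 nuclear ones −0.04 (47 above 0). In BMSC-treated against COPD model the median was −0.0071 for members (7 of 14 above 0), beside −0.10 for all (86 of 191). It was 0.59 for the other mitochondrial fragments (12 of 13) and −0.22 for the nuclear ones (39 of 99). There the 22-mer stood at 0.69 ± 0.53 log2. In BMSC-treated against control the members' median was 0.34, with 13 of 14 above 0, beside 0.09 for all (107 of 191). It was 0.54 for the other mitochondrial fragments (11 of 13) and −0.14 for the nuclear ones (37 of 99). The 22-mer stood at 0.42 ± 0.53. Single libraries moved these medians. Without BMSC-treated 2 the members' median in BMSC-treated against control was −0.08, with 7 of 14 above 0, and without the 3 libraries of low listed share it was 0.12, also with 7 of 14. Without control 3 the median in COPD model against control was 0.078, with 8 of 14 above 0. The comparisons share libraries, so their values are given side by side only. Scaling moved the medians: without normalization factors the members' medians were 0.13, 0.11 and 0.02 and those of all tsRNAs 0.03, −0.31 and −0.20.

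Nuclear genes that make, modify, charge, cut or degrade mitochondrial tRNAs were read in the mRNA libraries, in FPKM, the fragments counted per length of transcript and per library size. The lists held 32 genes, of which 30 were tested with limma on log2(FPKM + 1). None was called in COPD model against control, where 0.0765% of 11765 genes were called, in BMSC-treated against COPD model, with 0.127% called, or in BMSC-treated against control, with 0% called. At an unadjusted p under 0.05 limma gave 2, 4 and 0 of the 30, against 775, 1307 and 48 of the 11765 genes tested. The median changes of the 30 were 0.64, −0.76 and −0.13 log2, close to the 0.66, −0.75 and −0.10 of all genes. The highest of the end-processing genes was Hsd17b10, a subunit of mitochondrial RNase P, which cuts tRNA precursors on the 5′ side. It stood at 19.4 ± 7.74 FPKM in control, 28.2 ± 3.28 in COPD model and 15.4 ± 9.80 in BMSC-treated libraries (SD, n = 3 each). Elac2, which cuts tRNA precursors on the 3′ side, stood at 1.05 ± 0.754, 3.19 ± 1.28 and 1.06 ± 0.761 FPKM in the same order. Trnt1 and Trmt10c, of the same list, had means of 3.08, 4.05 and 2.70 FPKM and of 2.20, 4.76 and 2.22 FPKM. TrnH ends at 11612, directly before TrnS2 at 11613, and which enzyme frees the 5′ end of Ser-GCT was not tested. Sars2, the mitochondrial seryl-tRNA synthetase, stood at 0.627 ± 0.356, 0.938 ± 0.169 and 0.700 ± 0.624 FPKM. Ang, which encodes angiogenin, stood at 8.93 ± 4.91, 14.9 ± 2.24 and 8.30 ± 5.22 FPKM (SD, n = 3 each). In the list of tRNA cleavage genes, 3 others were higher. Their means were 41.0, 71.5 and 33.8 FPKM for Rnaset2a, 21.9, 45.9 and 21.4 for Rnh1 and 21.45, 36.3 and 16.6 for Rnaset2b. In COPD model against control 30 of the 30 listed genes were above 0, as were 11105 of the 11765 tested. In BMSC-treated against COPD model 0 of the 30 were, and 698 of all.

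The mRNAs encoded on the same genome as these tRNAs were read beside the fragments. Mitochondrial genes held 89.2%, 65.1% and 46.9% of the FPKM in control libraries, 30.04%, 28.31% and 23.91% in COPD model libraries and 92.2%, 70.8% and 55.6% in BMSC-treated libraries. Limma called 4 of the 13 lower in COPD model against control (mt-Co1, mt-Nd4, mt-Nd5 and mt-Cytb) and 8 higher in BMSC-treated against COPD model, and 0 in each after FPKM was rescaled without these genes and Scgb1a1. Leaving out 1 mRNA library moved the counts between 0 and 11 in both comparisons. They were 0 in both without COPD model 3, BMSC-treated 1 or BMSC-treated 2, and 0 in COPD model against control also without control 1 or control 2. mt-Nd4 and mt-Nd5, which flank the tRNA cluster that holds Ser-GCT, changed by −1.50 ± 0.33 and −1.78 ± 0.38 log2 in COPD model against control (limma, adjusted p 0.0252 and 0.0215). The 22-mer of Ser-GCT changed by −0.27 ± 0.53 in the same comparison, in other libraries and on another scale, and the difference between the values was not tested. The labels do not say that an mRNA and a tsRNA library of one number come from the same mouse. All 6 lung markers were detected in every mRNA library. Their sum was 7503 to 102141 FPKM in control, 164194 to 251292 in COPD model and 9887 to 37120 in BMSC-treated libraries. It separated the COPD model from the other groups, while control and BMSC-treated libraries overlapped. Most of that sum was Scgb1a1, the secretory product of club cells, which was 2.62 ± 0.37 log2 higher in COPD model against control and changed by −3.29 ± 0.37 in BMSC-treated against COPD model (limma, adjusted p 3.23e-06 and 4.30e-10), opposite to the mitochondrial genes. It was not called after the rescaling, in which no gene was. The 4 cardiac muscle markers (Myh6, Myl7, Tnnt2 and Actc1) were also detected in each, with none at 0, and summed to 18.2 to 461 FPKM in control, 142 to 246 in COPD model and 25.7 to 276 in BMSC-treated libraries. The 5 blood markers, also above 0 in every library, summed to 822 to 2009, 366 to 1275 and 672 to 1726 FPKM in the same order. The part of these 3 marker lists in the result was not tested.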

How the data were processed

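Small RNA and mRNA of mouse lung were read from 9 libraries each. Per the labels' protocols, 1.5 µg of Trizol-extracted RNA went into each sample, and RNA for the small RNA libraries first had modifications that hinder library construction removed, a step that can alter which tRNA ends are read. The tools named per the submitters' processing notes are Bowtie, StringTie, cutadapt and FastQC, with the build mm10. Their versions and roles, the treatment of reads that fit several tRNAs, and the filter behind the listed tsRNAs were not given in the sources used here. Per the file headers, the authors deposited raw read counts per tsRNA, the same tsRNAs in CPM, and mRNA values in FPKM. Counts divided by CPM gave the total reads of each library, and no value column was left unassigned.

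Counts were tested with edgeR 4.0.16 in R 4.3.3 (quasi-likelihood test, filterByExpr, TMM factors on the sums of listed tsRNAs, all 9 libraries in one fit). The filter kept 191 of 193 tsRNAs, and the common coefficient of biological variation was 0.545. P-values were adjusted by Benjamini-Hochberg over all tsRNAs tested, and an adjusted p under 0.05 made a call. Standard errors of log2 changes were derived from the test statistic. FPKM was tested as log2(FPKM + 1) with limma 3.58.1, with a mean-variance trend, for genes with at least 1 FPKM in at least 3 libraries; the mRNA depth is unknown, and the scale understates changes of low genes. Shares were compared by exact two-sided permutation tests. DESeq2 1.42.0, other scalings, filters, left-out libraries and a replicate block were alternatives. An anticodon was located where it follows T in a loop of 7 bases with at least 4 of 5 flanking stem pairs. Python 3.11.15, pandas 2.3.3, numpy 2.4.6 and scipy 1.17.1 were used. All 14 members were named. The members, gene lists and tests were chosen with earlier results of these data known.

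Same-numbered libraries were checked for pairing by correlating their deviations from the group means over tsRNAs. For numbers 1, 2 and 3 the correlations were 0.713, 0.718 and 0.18 between control and BMSC-treated libraries. Unlike numbers of these groups gave −0.771 to 0.585, and BMSC-treated 3 with control 1 gave 0.221, above the 0.18 of number 3. Same-numbered values were 0.433, −0.6 and −0.541 between control and COPD model libraries. They were 0.514, −0.334 and −0.0401 between COPD model and BMSC-treated libraries. COPD model 3 with control 2 gave 0.624. Over mRNA, same-numbered control and BMSC-treated libraries gave 0.632, 0.194 and 0.497, and unlike numbers of these groups −0.578 to 0.309. Same-numbered mRNA values were −0.0171, 0.178 and −0.171 between control and COPD model libraries and 0.0463, −0.0553 and −0.104 between COPD model and BMSC-treated libraries. The correlations thus did not single out equal numbers as pairs with the COPD model. They did not settle whether equal numbers of control and BMSC-treated libraries are pairs, and no label pairs them. The main fit used no pairing, and the replicate block was an alternative only. The edgeR and limma steps were tested on simulated data with known changes. For edgeR the simulated spread was smaller than in these data, and the changes were larger than any fitted for a member. That test therefore does not show the power at the spread seen here.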

Additional observations from a re-analysis of the deposited data

How the results depend on the processing

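No member was called in any alternative fit, so each reversal given here is of an uncalled log2 change. Sizes moved too, as for the Ser-GCT 28-mer in BMSC-treated against COPD model, from −0.08 to −1.19 without the 3 libraries of low listed share. The cause of the differences was not tested. In COPD model against control the Ser-TGA 24-mer went to −0.081 with RLE factors, −0.20 without factors, −0.059 with implied totals and −0.080 with DESeq2. In BMSC-treated against COPD model, RLE factors, no factors and DESeq2 turned the Ser-GCT 28-mer to 0.10, 0.14 and 0.10, the 30-mer to 0.17, 0.24 and 0.17, and the Ser-TGA 23-mer to 0.069, 0.0027 and 0.067. Implied totals turned the Ser-GCT 23-mer to −0.053, the 30-mer to 0.017 and the Ser-TGA 24-mer to −0.014, which was −0.0012 without a filter. Fitting only the groups compared turned the Ser-GCT 28-mer to 0.018, the 30-mer to 0.12 and the Ser-TGA 23-mer to 0.035. In BMSC-treated against control the Ser-GCT 32-mer went to −0.033 (RLE), −0.26 (no factors), −0.22 (implied totals), −0.035 (DESeq2) and −0.0091 (only these groups). No factors and implied totals turned the 29-mer of Ser-GCT to −0.048 and −0.081 and the 24-mer of Ser-TGA to −0.11 and −0.074. No factors turned the Ser-GCT 31-mer to −0.088, and implied totals the 24-mer to −0.055.

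With a replicate block, the Ser-TGA 23-mer and 24-mer went to 0.043 and −0.019 in BMSC-treated against COPD model. In BMSC-treated against control the block turned the Ser-GCT 24-mer, 29-mer and 32-mer to −0.15, −0.23 and −0.019, and, with only these groups in the fit, to −0.18, −0.38 and −0.039. That paired fit, added after seeing the data, turned the Ser-TGA 23-mer to 0.22 against the COPD model and changed no call. Without the 3 libraries of low listed share, also added after seeing the data, the Ser-TGA 31-mer went to 0.42 in COPD model against control. Against the COPD model the Ser-GCT 23-mer then stood at −0.024 and the Ser-TGA 24-mer and 28-mer at −0.40 and −0.031. Against control the Ser-GCT 24-mer, 28-mer, 29-mer, 30-mer and 32-mer stood at −0.63, −0.48, −0.81, −0.10 and −0.12 and the Ser-TGA 24-mer at −0.069.

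Leaving out each of the 9 libraries in turn gave these ranges where a direction changed. In COPD model against control they were −0.016 to 0.91 for the Ser-GCT 29-mer, −0.18 to 0.32 for the Ser-TGA 24-mer, −0.077 to 0.88 for the 23-mer, −0.22 to 0.56 for the 29-mer and −0.84 to 0.19 for the 31-mer. In BMSC-treated against COPD model they were −0.16 to 0.27, −1.32 to 0.33, −1.75 to 0.056 and −1.13 to 0.41 for the Ser-GCT 23-mer, 28-mer, 29-mer and 30-mer. For the Ser-TGA 23-mer, 24-mer and 28-mer they were −0.55 to 0.20, −0.28 to 0.29 and −0.018 to 0.76. In BMSC-treated against control they were −0.022 to 0.68, −0.78 to 0.42, −0.79 to 0.85, −1.31 to 0.51, −0.18 to 1.32 and −0.23 to 0.21 for the Ser-GCT 22-mer, 24-mer, 28-mer, 29-mer, 30-mer and 32-mer. The Ser-TGA 24-mer ranged from −0.18 to 0.39.

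Calls over all tsRNAs, 0 in each comparison, became 2, 1 and 1 with DESeq2, in the order COPD model against control, then BMSC-treated against COPD model, then BMSC-treated against control. The replicate block gave 1 and 3 in the first pair of these and 0 in the last. BMSC-treated against COPD model gave 5 with RLE factors, 2 with implied totals and 3 with only its groups, and leaving out the 3 libraries gave 3 in BMSC-treated against control. Leaving out 1 library gave 0 to 3, 0 to 6 and 0 to 1. mRNA calls were 9, 15 and 0. They became 0 and 0 with a pseudocount of 0.1 or after rescaling, 1 and 6 without a filter, and 17 and 34 with the replicate block, in the same order. Without mRNA libraries control 1 and BMSC-treated 1, chosen after seeing the data, they were 3, 10 and 6. Leaving out 1 library gave 1 to 44, 0 to 34 and 0 to 2. Depth limits the Ser-TGA pieces most, which rest on 4 to 229 reads per library.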
